A study of Homo sapiens with 15 samples.

Results

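The 10 loci described here encode the EGF receptor family and its ligands. They are the receptors EGFR, ERBB2, ERBB3 and ERBB4 and the ligands AREG, EREG, HBEGF, TGFA, BTC and NRG1, chosen by name out of 20033 protein-coding genes of GENCODE v44. For each gene the body plus 20 kb on each side was examined in the peak lists of 15 ATAC-seq libraries, and peaks that shared at least 1 bp across libraries were merged into regions. These windows held 427 merged regions, of which 351 were found in at least 2 libraries and are called consensus regions below, out of 295008 consensus regions in the genome. All 10 genes passed the filter on low values.

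The libraries came from RPTEC cells, a human renal proximal tubule epithelial line immortalised with hTERT, in which open chromatin was mapped by Tn5 transposition. WT cells kept SETD2, the methyltransferase that places trimethylation on lysine 36 of histone H3. KO1 and KO2 were separate single-cell clones in which CRISPR/Cas9 cutting in exon 3 had disrupted SETD2, and Rescue1 and Rescue2 were single-cell clones of knockout cells carrying a lentiviral full-length FLAG-tagged SETD2. Each of the 5 groups had 3 libraries, so KO and rescue as used here pool 6 libraries each from 2 clones. All the lines share the hTERT background and were grown under G418, and the rescue lines were selected with blasticidin. In the deposited names both rescue lines carry the clone name of KO2, and each clone stands for 1 editing or transduction event. Libraries of a clone measure the spread within that clone, and a difference between a clone and WT cannot be told apart from a property of the single cell that founded it.

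EGFR and ERBB4 are receptor tyrosine kinases that bind ligand directly. ERBB2 has no known ligand and acts as the preferred partner of the others, and ERBB3 binds neuregulins but has little kinase activity of its own. The ligands are made as membrane-bound precursors and released by shedding. AREG, TGFA and EREG act through EGFR, EREG, HBEGF and BTC also act through ERBB4, and NRG1 acts through ERBB3 and ERBB4. In the kidney tubule the pathway is known for its part in epithelial repair after injury.

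The lists held 197527 to 266011 peaks, which covered 49.4 to 65.2 Mb. The covered length was 51.7 ± 3.91 Mb in WT (SD, n = 3), 55.9 ± 3.13 Mb in KO (SD, n = 6) and 58.3 ± 5.36 Mb in rescue (SD, n = 6). The lists give no read counts, so the depth of the libraries is unknown and no counting interval could be given. SETD2 itself had a peak at its start in all 15 libraries and 4145 to 6602 bases under peaks, which is no check of the labels since the edit lies in a coding exon. Of 14 renal tubule and epithelial markers, 7 had a peak within 500 bp of the start in all 15 libraries, among them PAX8, CDH16 and EPCAM. No library had one at HNF4A, CUBN, AQP1 or SLC34A1, which mark the differentiated proximal tubule. The start of CDH1 was covered in 3 of 3 WT libraries, 1 of 6 KO libraries and 0 of 6 rescue libraries. Of 6 markers of other cell types only PDGFRB had a start peak in all 15 libraries, while PTPRC and PECAM1 had none in any. CDH5, an endothelial marker like PECAM1, had one in 3 of 3 Rescue1 and 2 of 3 Rescue2 libraries and in none of the others. COL1A1 had one only in 2 of 3 KO1 libraries, and NPHS1 only in 1 of 3 Rescue1 libraries.

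Some called regions, chosen by their enrichment rank and not by the size of the change, are shown first by their sequence. Of the 12 called regions with the highest enrichment, the 6 at genes other than NRG1 are given, where a called region had a peak in every library of one condition and in none of the other. Sequences are from hg38, plus strand, cut to the central 300 bases where the region was longer, and capitals mark the letters TGANTCA (AP-1), GGAATG (TEAD), TTGCNNAA (C/EBP) and TGTGGT (RUNX) on either strand.
ERBB2 intron 1, chr17:39705758-39706057, present in WT and rescue and absent in KO: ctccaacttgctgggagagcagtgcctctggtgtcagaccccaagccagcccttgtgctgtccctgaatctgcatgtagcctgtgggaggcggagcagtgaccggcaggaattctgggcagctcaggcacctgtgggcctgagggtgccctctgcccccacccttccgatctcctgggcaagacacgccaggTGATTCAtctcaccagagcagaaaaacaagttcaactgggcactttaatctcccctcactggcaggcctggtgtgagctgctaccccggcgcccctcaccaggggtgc
TGFA intron 2, chr2:70508813-70508982, present in WT and rescue and absent in KO: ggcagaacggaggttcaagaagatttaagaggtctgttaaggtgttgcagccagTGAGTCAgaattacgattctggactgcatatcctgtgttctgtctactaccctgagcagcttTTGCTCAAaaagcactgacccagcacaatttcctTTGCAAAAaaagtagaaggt
TGFA intron 1, chr2:70532365-70532509, present in WT and absent in KO: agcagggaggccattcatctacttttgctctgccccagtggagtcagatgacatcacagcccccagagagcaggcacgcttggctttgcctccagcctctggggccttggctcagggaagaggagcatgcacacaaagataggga
EGFR intron 22, chr7:55194633-55194932, absent in WT and present in KO: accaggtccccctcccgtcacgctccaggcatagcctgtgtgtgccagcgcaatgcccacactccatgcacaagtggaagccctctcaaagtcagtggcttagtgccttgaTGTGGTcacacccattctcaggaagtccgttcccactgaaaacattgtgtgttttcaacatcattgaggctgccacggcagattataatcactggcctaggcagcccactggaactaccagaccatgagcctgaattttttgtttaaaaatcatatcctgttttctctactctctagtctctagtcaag
EGFR intron 12, chr7:55160643-55160866, absent in WT and present in KO: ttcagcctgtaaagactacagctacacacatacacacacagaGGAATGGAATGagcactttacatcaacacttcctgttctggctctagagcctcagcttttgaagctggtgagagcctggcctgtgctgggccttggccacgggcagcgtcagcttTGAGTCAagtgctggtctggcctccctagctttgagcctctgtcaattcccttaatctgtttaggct
ERBB4 intron 1, chr2:212227921-212228037, present in KO only: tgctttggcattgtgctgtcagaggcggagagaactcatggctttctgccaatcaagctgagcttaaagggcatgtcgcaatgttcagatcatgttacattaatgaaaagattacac

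The AP-1 letters stood in both of the regions above that were lost in KO and present again in all 6 rescue libraries. In windows of 200 bp about the middle of each region these letters were found in 8 of 21 called regions, in 102 of 351 consensus regions at the 10 loci (29.1%) and in 27.5% of all consensus regions. TGTGGT was found in 20.7%, GGAATG in 15.5% and TTGCNNAA in 10.4% of all consensus regions. The letters of FOX (TGTTTAC) were in 1 of the 21 called regions and in 3.51% of all consensus regions. The letters of the POU octamer (ATGCAAAT, 1.39% of all consensus regions), NF-kB (GGGNNTTCC, 4.97%) and ETS (CCGGAAG, 1.48%) were in 0 of the 21. A match is a description of the sequence and does not show that a factor bound there.

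The main measure is the number of bases under peaks in each window. Counts were compared as log2(bases + 100) with limma over 19001 protein-coding genes, and an adjusted p is that of limma with Benjamini-Hochberg adjustment over all of them. KO against WT asks what loss of SETD2 was accompanied by, and rescue against KO asks what its return was accompanied by. In KO against WT, 1 of the 10 loci was called higher (15.9% of all genes tested were) and 2 lower (13.9%). In rescue against KO, 3 were higher (31% of all genes) and 2 lower (6.83%). In rescue against WT, 1 was higher (24% of all genes) and 1 lower (3.92%). In KO2 against KO1, 0 were called by limma (2.6% of all genes were higher and 0.484% lower), 0 had an unadjusted p under 0.05, and 0 passed by the exact permutation test, which with 3 libraries against 3 cannot go below p = 0.1. In Rescue2 against Rescue1, limma called 0 of the loci, beside 727 genes higher and 39 lower of 19001. HBEGF (0.22) and NRG1 (0.21) had unadjusted limma p of 0.02 and 0.025. With libraries scaled to equal covered length ERBB4 was called (-0.18, adjusted p = 0.0347), beside 690 genes higher and 894 lower of 18995. The median log2 difference of the 10 loci was -0.03 in KO against WT and 0.06 in rescue against KO, beside medians over all genes of -0.01 and 0.10.

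**Figure D1:**
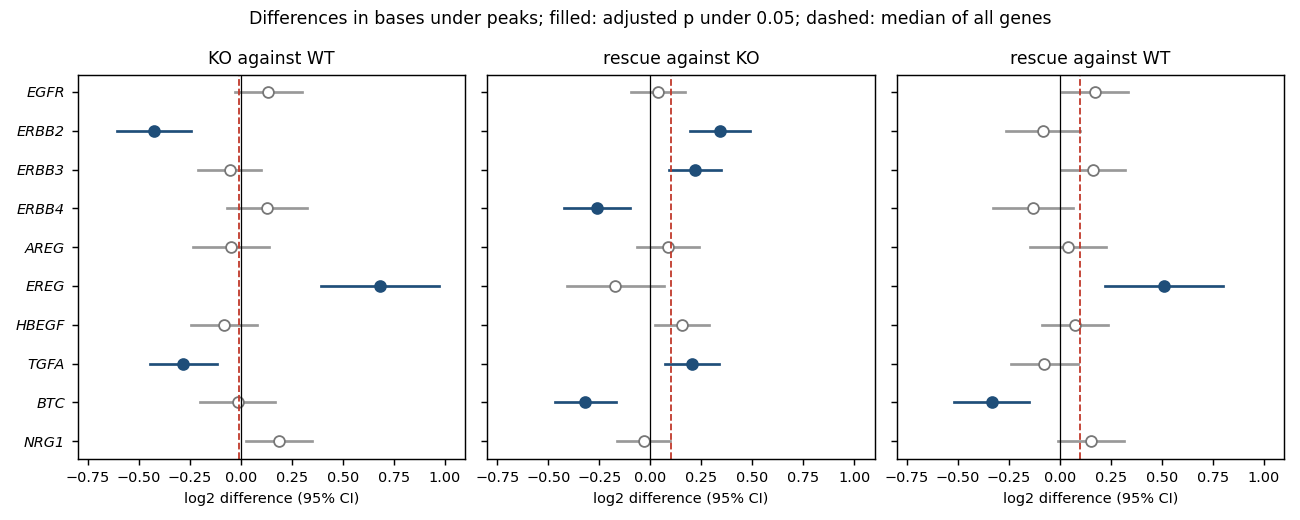
The log2 difference in bases under peaks is plotted for each of the 10 loci in 3 comparisons, with 95% confidence intervals from limma. Filled points had an adjusted p under 0.05, and the dashed line is the median of all 19001 genes. ERBB2 and TGFA lie to the left in KO against WT and to the right in rescue against KO, and EREG lies to the right of 0 in both comparisons with WT.

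The median gene was 0.10 higher in rescue than in KO and 0.10 higher than in WT on the log2 scale, and values below should be read against that shift. Scaling every library to the same covered length moved the median gene in KO against WT from -0.01 to -0.12, in rescue against KO to 0.05 and in rescue against WT to -0.07. Of the genes called, the share called higher fell from 53.4% to 24.7% in KO against WT, from 82.0% to 68.6% in rescue against KO and from 86.0% to 34.0% in rescue against WT with that scaling.

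**Figure D2:**
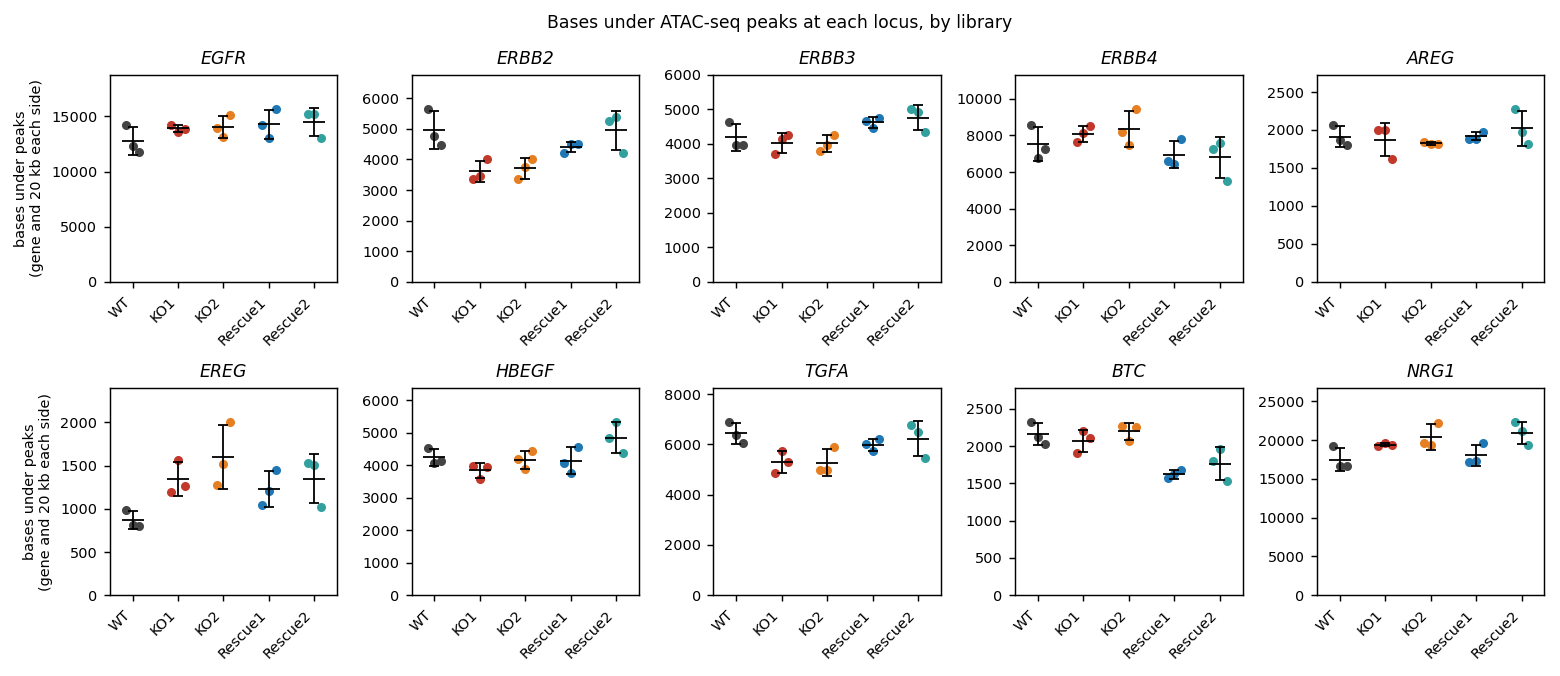
Each panel shows 1 locus, with bases under peaks (gene and 20 kb on each side) on a linear axis from 0 and 1 point per library. Bars mark the mean and SD of the 3 libraries of each group. All 6 KO libraries lie below all 3 WT libraries at ERBB2 and TGFA, and all 6 lie above them at EREG and NRG1. Such separation gives the smallest possible p of the exact permutation test, 0.0238, which was 0.0943 after adjustment over all genes.

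Among the receptors, ERBB2 showed the clearest change. The gene (ENSG00000141736) lies on chromosome 17 from 39687914 to 39730426 on the plus strand. WT libraries had 5644, 4753 and 4471 bases under peaks, KO1 libraries 3376, 3450 and 4007, and KO2 libraries 3347, 3759 and 4021. Rescue1 libraries had 4219, 4491 and 4508, and Rescue2 libraries 5256, 5381 and 4210. Every KO library was below every WT library and below every rescue library, while rescue and WT overlapped. KO fell by 0.42 on the log2 scale against WT (SE 0.09, adjusted p = 0.000496), from 4956 ± 612 (SD, n = 3) to 3660 ± 311 (SD, n = 6). Rescue was 0.34 higher than KO (SE 0.07, adjusted p = 0.000467), at 4677.5 ± 514 (SD, n = 6). Against WT the rescue difference was -0.08 (95% confidence interval -0.26 to 0.10, adjusted p = 0.538), and with libraries scaled to equal covered length it was -0.25 (adjusted p = 0.000761).

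Between WT and KO at ERBB2, the 7 regions held by all 15 libraries fell by 545 bases on average and those held by fewer libraries fell by 751, where any region lost in KO is by definition in the second set. The region in intron 1, 5.8 kb downstream of the canonical start (chr17:39705733-39706083), had a peak in 3 of 3 WT libraries, 0 of 6 KO libraries and 6 of 6 rescue libraries. Its fold enrichment over background, as the peak caller gave it, was 8.48, 10.8 and 9.41 in WT and 5.34 to 9.75 in rescue, beside a median between 6.18 and 7.03 for all peaks of a list. A second region, 25.0 kb upstream (chr17:39674951-39675252), was found in 3 of 3 WT libraries and in none of the 12 others. Its return was therefore not seen in rescue. The start region (chr17:39699756-39700917) was present in all 15 libraries, with means of 848 bases in WT, 703 in KO and 943 in rescue. The window also holds PNMT, PGAP3, MIEN1 and GRB7, and 9 of its 20 consensus regions lie within 500 bp of a start of these genes. Those 9 held 2939 bases in WT, 2340 in KO and 2709 in rescue. Counted over the gene body alone, the KO difference was -0.59 (limma adjusted p = 0.000277) and the rescue difference 0.48 (adjusted p = 0.000267).

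**Figure D3:**
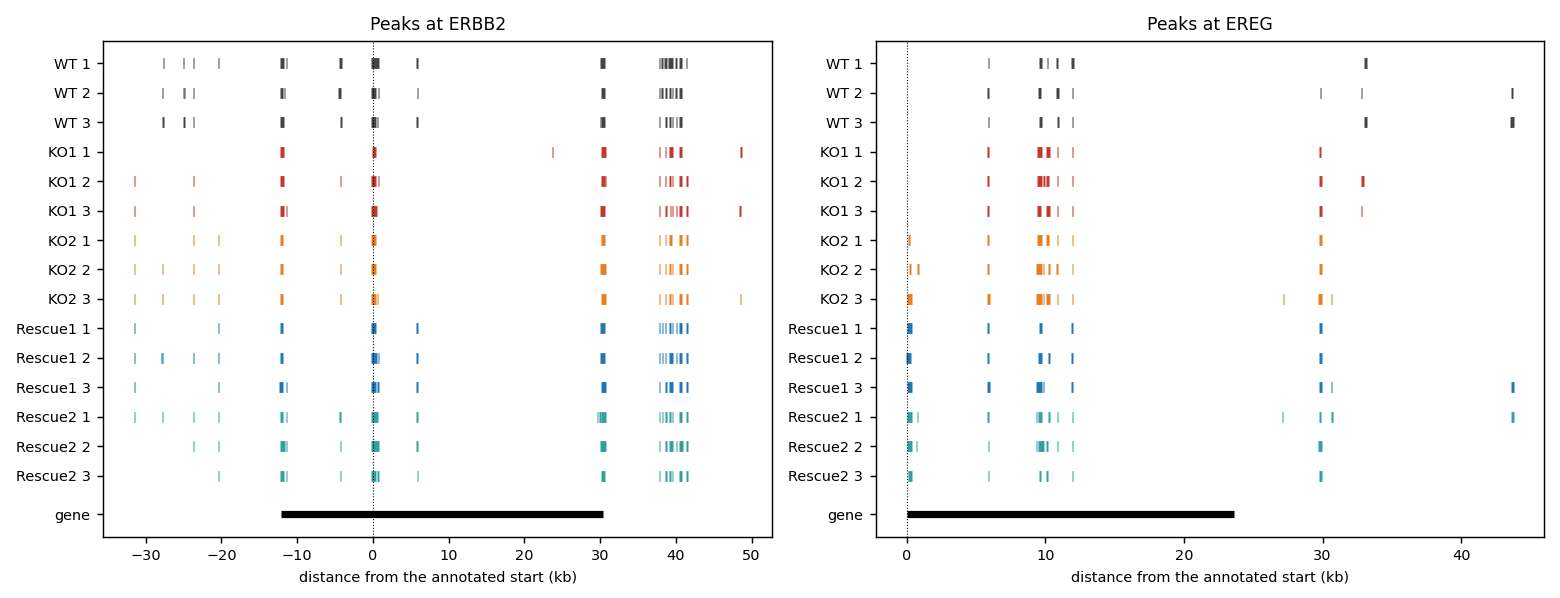
Peaks of each library at ERBB2 (left) and EREG (right) are drawn as bars by their distance in kb from the canonical start, with the gene body in black below. At ERBB2 the peak 5.8 kb downstream of the start is missing from all 6 KO libraries. At EREG the peak at the start is missing from the WT and KO1 libraries and present in the other 9.

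EGFR (ENSG00000146648, chromosome 7 from 55019017 to 55211628, plus strand) changed little in total. WT libraries had 14235, 12280 and 11821 bases, KO1 libraries 14255, 13612 and 13896, and KO2 libraries 13936, 13164 and 15135. Rescue1 libraries had 14190, 13019 and 15664, and Rescue2 libraries 15222, 15258 and 13054. The groups overlapped throughout, with a KO difference of 0.13 (95% confidence interval -0.03 to 0.30, limma adjusted p = 0.221) and a rescue difference against KO of 0.04 (interval -0.10 to 0.17, adjusted p = 0.673). The start region (chr7:55018621-55020466) was open in all 15 libraries, with means of 1434 bases in WT, 1491 in KO and 1489 in rescue.

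Of the 61 consensus regions at EGFR, 1 was lost in rescue against KO (1.64%, beside 1.24% of all consensus regions). In KO against WT 0 were lost (2.48% of all consensus regions were) and 3 were gained (4.92%, beside 4.79%). Those in introns 22 and 12, shown above, and one 137.4 kb downstream of the start (chr7:55156309-55156527, intron 8 of the canonical transcript and exonic in another) had peaks in 0 of 3 WT libraries and 6 of 6 KO libraries. The intron 22 region (chr7:55194563-55195003) was also present in 6 of 6 rescue libraries, at a fold enrichment of 7.30 to 8.33, above the 4.50 to 6.48 of the KO libraries. The intron 12 region was found in 4 of 6 rescue libraries and the intron 8 region in 5 of 6. A region in intron 1 (chr7:55048571-55048752) was found in all 9 WT and KO libraries and in 0 of 6 rescue libraries, at a low fold enrichment of 3.23 to 5.13.

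ERBB3 (ENSG00000065361, chromosome 12 from 56076799 to 56103505, plus strand) had 4646, 3958 and 3960 bases in WT. KO1 libraries had 3697, 4143 and 4251, and KO2 libraries 3787, 3974 and 4271. Rescue1 libraries had 4663, 4450 and 4749, and Rescue2 libraries 5007, 4934 and 4338. Every rescue library was above every KO library, and WT spanned both. Rescue was 0.22 higher than KO (SE 0.06, limma adjusted p = 0.00667), which is 0.11 above the shift of the median gene. KO differed from WT by -0.06 (95% confidence interval -0.21 to 0.10, adjusted p = 0.63), or by -0.17 with libraries scaled to equal covered length (adjusted p = 0.00411). ESYT1, PA2G4, RPL41 and ZC3H10 share the window, and over the gene body alone the rescue difference was 0.12 (adjusted p = 0.372), so the call was lost there, as it was with Rescue1 alone (adjusted p = 0.0574). A weak region 2.1 kb upstream of the canonical start (chr12:56077966-56078183) was gained in KO, with peaks in 0 of 3 WT, 6 of 6 KO and 5 of 6 rescue libraries. Another, 40.2 kb downstream (chr12:56120252-56120431), was lost in KO, with 3 of 3, 0 of 6 and 5 of 6. Both start regions (chr12:56078983-56079675 and chr12:56079720-56080462) were open in all 15 libraries.

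ERBB4 (ENSG00000178568, chromosome 2 from 211375717 to 212538841, minus strand) is among the longest of the genes and had only 6.28 bases under peaks per kb of window, against 59.8 at EGFR, 52.4 at ERBB2 and 64.8 at ERBB3. WT libraries had 8590, 6750 and 7278 bases, KO1 libraries 7641, 8110 and 8522, and KO2 libraries 8175, 7476 and 9440. Rescue1 libraries had 6590, 6455 and 7828, and Rescue2 libraries 7283, 7606 and 5523. The rescue range reached lower than the KO range, and the ranges overlapped. Rescue fell by 0.26 against KO on the log2 scale (SE 0.08, limma adjusted p = 0.0107), while the median gene rose by 0.10. KO differed from WT by 0.13 (95% confidence interval -0.07 to 0.33, adjusted p = 0.349). Rescue differed from WT by -0.13 (interval -0.33 to 0.07, adjusted p = 0.331). That difference was called with libraries scaled to equal covered length (-0.30, adjusted p = 7.09e-06) and with 150000 peaks per list (-0.36, adjusted p = 0.0168). Against KO1 alone the rescue difference was -0.24 (adjusted p = 0.0576), and with Rescue1 alone it was -0.24 (adjusted p = 0.0722), so neither was called.

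Within 500 bp of the canonical start of ERBB4 lay 3 neighbouring regions that did not move together. The widest of them (chr2:212538938-212539474) was present in all 15 libraries, with means of 236 bases in WT, 304 in KO and 156 in rescue. The next (chr2:212538599-212538885) was found in 1 of 3 WT, 6 of 6 KO and 5 of 6 rescue libraries, and the last (chr2:212538368-212538536) in 3 of 3, 3 of 6 and 0 of 6. A larger region beside them, 364 bp from another annotated start (chr2:212537337-212538166), was present in all 15 libraries, with means of 657 bases in WT, 658 in KO and 519.5 in rescue. An alternative start 109.6 kb into the gene had a peak in 0 of 3 WT, 2 of 3 KO1, 3 of 3 KO2, 0 of 3 Rescue1 and 2 of 3 Rescue2 libraries. The intron 1 region shown above (chr2:212227921-212228037) had a peak in 6 of 6 KO libraries, at a fold enrichment of 5.09 to 6.65, and was absent in all 9 others.

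Among the ligands, EREG and TGFA changed in opposite directions. EREG, AREG and BTC are neighbours on chromosome 4. EREG (ENSG00000124882, 74365145 to 74388749, plus strand) encodes epiregulin. WT libraries had 986, 815 and 801 bases, KO1 libraries 1199, 1563 and 1269, and KO2 libraries 1270, 1517 and 1999. Rescue1 libraries had 1040, 1204 and 1450, and Rescue2 libraries 1528, 1501 and 1018. All 12 KO and rescue libraries were above all 3 WT libraries, and KO and rescue overlapped. KO was 0.68 higher than WT (SE 0.14, limma adjusted p = 0.000472), at 1469.5 ± 298 (SD, n = 6) against 867 ± 103 (SD, n = 3). Rescue was still 0.51 above WT (SE 0.14, adjusted p = 0.0077), at 1290 ± 233 (SD, n = 6), and differed from KO by -0.17 (95% confidence interval -0.41 to 0.06, adjusted p = 0.246), or by -0.23 with libraries scaled to equal covered length (adjusted p = 0.0374). Against WT the difference was 0.57 for KO1 alone (adjusted p = 0.00948) and 0.79 for KO2 alone (adjusted p = 0.000601). It was 0.45 for Rescue1 alone (adjusted p = 0.052) and 0.46 without WT replicate 3 (adjusted p = 0.053), and the call was lost in both.

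The annotated start of EREG differed between the KO clones. The region over it (chr4:74365071-74365506) had no peak in any WT or KO1 library. In KO2 the peaks covered 121, 146 and 348 bases at fold enrichments of 7.65, 5.72 and 5.59. In Rescue1 they covered 330, 375 and 379 bases at 7.14, 11.0 and 12.9, and in Rescue2 312, 311 and 270 bases at 11.9, 6.70 and 8.85. The start was thus open in all 9 libraries that carry the clone name of KO2 and in none of the 6 others, and since KO1 was closed the region was not called in KO against WT. EREG was the only one of the 10 genes whose canonical start lacked a peak in any library. The 250 bases before this start are printed from RefSeq (GRCh38.p14, plus strand), with the 74 bases that lie in the region in capitals, because this was the start that differed between groups.
EREG promoter, chr4:74364895-74365144: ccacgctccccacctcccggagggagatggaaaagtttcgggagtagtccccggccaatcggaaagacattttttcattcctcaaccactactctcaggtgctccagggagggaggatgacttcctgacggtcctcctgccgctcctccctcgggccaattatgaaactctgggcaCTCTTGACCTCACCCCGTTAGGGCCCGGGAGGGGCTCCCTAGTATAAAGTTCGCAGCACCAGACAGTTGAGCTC
The letters TATAAA begin 32 bases before the start, a motif looked for after the sequence was seen, on the plus strand of the gene. Within 50 bases before the start they were found in 2.63% of 35116 RefSeq promoters. Of the 8 genes with an entry in that table, EREG, AREG and EGFR had an entry that held them. A gene can have several entries, so this count of genes cannot be set beside the share of promoters. The entry of EGFR need not be its canonical start. Of the motifs listed above the 250 bases held 1, GGAATG, on the opposite strand.

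Elsewhere at EREG, regions chosen here after their values were seen differed between conditions without meeting the all-or-none rule. A region 10.2 kb into intron 1 (chr4:74375170-74375462) was found in 1 of 3 WT, 6 of 6 KO and 4 of 6 rescue libraries. A region 29.8 kb from the start, beyond the end of the gene (chr4:74394814-74395121), was found in 1 of 3 WT libraries and in all 12 others. The region beside it (chr4:74397898-74398327) ran the other way, in 3 of 3 WT, 2 of 3 KO1 and none of the KO2 or rescue libraries. The largest intronic region (chr4:74374453-74375106) was present in all 15 libraries and widened from a mean of 203 bases in WT to 422 in KO and 323 in rescue.

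TGFA (ENSG00000163235, chromosome 2 from 70447284 to 70554193, minus strand) encodes transforming growth factor alpha. WT libraries had 6873, 6388 and 6041 bases, KO1 libraries 4854, 5735 and 5281, and KO2 libraries 4962, 4977 and 5895. Rescue1 libraries had 6015, 5725 and 6200, and Rescue2 libraries 6781, 6474 and 5443. All 6 KO libraries were below all 3 WT libraries, and rescue overlapped both. KO fell by 0.28 on the log2 scale (SE 0.08, limma adjusted p = 0.00804), from 6434 ± 418 (SD, n = 3) to 5284 ± 438 (SD, n = 6). Rescue was 0.21 above KO (SE 0.06, adjusted p = 0.0142), at 6106 ± 488 (SD, n = 6), of which 0.10 was the shift of the median gene. Against WT the rescue difference was -0.08 (95% confidence interval -0.24 to 0.09, adjusted p = 0.524). With libraries scaled to equal covered length it was -0.24 (adjusted p = 6.71e-05). Without WT replicate 1 the adjusted p of KO against WT was 0.0534, and without KO1 replicate 1 or Rescue2 replicate 1 that of rescue against KO was 0.0523 and 0.051. The rescue call was also lost against KO1 alone (0.0508) or KO2 alone (0.0576) and with Rescue1 alone (adjusted p = 0.108). It was lost by the exact permutation test as well (adjusted p = 0.0569).

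The start region of TGFA (chr2:70553239-70554450) was alike in all groups, with means of 1052 bases in WT, 1031 in KO and 1066 in rescue. The intron 2 region, 44.9 kb from the start, had a peak in 3 of 3 WT, 0 of 6 KO and 6 of 6 rescue libraries, with fold enrichments of 5.03 to 6.19 in WT and 4.09 to 7.38 in rescue. The intron 1 region, 21.4 kb from the start, was lost in KO and found again in 2 of 6 rescue libraries. Between WT and KO, regions held by all 15 libraries fell by 661 bases in the mean, and the others fell by 489.

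BTC (ENSG00000174808, chromosome 4 from 74744759 to 74794523, minus strand) encodes betacellulin and was lower in the rescue lines. WT libraries had 2317, 2127 and 2029 bases, KO1 libraries 1906, 2197 and 2102, and KO2 libraries 2267, 2069 and 2262. Rescue1 libraries had 1566, 1619 and 1684, and Rescue2 libraries 1796, 1965 and 1526. All 6 rescue libraries were below all 3 WT libraries, and 5 of 6 were below all KO libraries. Rescue fell by 0.32 against KO (SE 0.07, limma adjusted p = 0.0011) and by 0.34 against WT (SE 0.09, adjusted p = 0.00592), while KO differed from WT by -0.02 (95% confidence interval -0.20 to 0.17, adjusted p = 0.92). The difference lay mostly at the edge of the window. A region 69.5 kb from the start, beyond the end of the gene (chr4:74724855-74725271), was found in all 9 WT and KO libraries and in 1 of 6 rescue libraries, where mean bases went from 278 in KO to 14.8. Over the gene body alone rescue differed from KO by -0.16 (adjusted p = 0.0578), and from WT by -0.15 (adjusted p = 0.154), so both calls were lost, and with flanks of 50 kb it differed from KO by -0.68 (adjusted p = 7.89e-10). The start region (chr4:74793662-74794937) was open in all 15 libraries.

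HBEGF (ENSG00000113070, chromosome 5 from 140332843 to 140346603, minus strand) encodes heparin-binding EGF-like growth factor. WT libraries had 4541, 4073 and 4119 bases, KO1 libraries 3983, 3586 and 3962, and KO2 libraries 4204, 3872 and 4428. Rescue1 libraries had 4078, 3752 and 4578, and Rescue2 libraries 4849, 5322 and 4377. The groups overlapped, and neither KO against WT (-0.08, 95% confidence interval -0.24 to 0.08, limma adjusted p = 0.469) nor rescue against KO (0.16, interval 0.02 to 0.29, adjusted p = 0.0568) was called. With libraries scaled to equal covered length both were called, at -0.19 (adjusted p = 0.00178) and 0.10 (adjusted p = 0.0491). The rescue difference was 0.27 for Rescue2 alone (adjusted p = 0.00938) and 0.04 for Rescue1 alone (adjusted p = 0.745), and it was 0.21 against KO1 alone (adjusted p = 0.0388) and 0.10 against KO2 alone (adjusted p = 0.38). Leaving out Rescue2 replicate 3 (adjusted p = 0.0124), Rescue1 replicate 2 (0.0305), KO2 replicate 3 (0.0357) or WT replicate 1 (0.0465) made it a call as well. Per kb of window this was the most open of the 10 loci, with 79.0 bases under peaks per kb. The gene itself spans 13761 bp of a window of 53.8 kb, which SLC4A9 shares, although 0 of the consensus regions lie within 500 bp of a start of SLC4A9. A region 18.3 kb from the start, beyond the end of the gene (chr5:140328165-140328418), was found in all 9 WT and KO libraries and in 0 of 6 rescue libraries. The start region (chr5:140345899-140346944) was open in all 15.

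AREG (ENSG00000109321, chromosome 4 from 74445136 to 74455005, plus strand) encodes amphiregulin and was the steadiest locus in its total, with a coefficient of variation of 7.79% over the 15 libraries. WT libraries had 2063, 1874 and 1796 bases, KO1 libraries 1996, 1997 and 1623, and KO2 libraries 1840, 1820 and 1811. Rescue1 libraries had 1887, 1883 and 1977, and Rescue2 libraries 2275, 1980 and 1820. KO differed from WT by -0.05 (95% confidence interval -0.23 to 0.14, limma adjusted p = 0.748) and rescue from KO by 0.09 (interval -0.06 to 0.24, adjusted p = 0.368). Its start region (chr4:74444770-74445655) was open in all 15 libraries, with means of 747 bases in WT, 765 in KO and 760 in rescue. None of its 10 consensus regions met the all-or-none rule. The parts of the total moved in opposite directions. Between WT and KO, regions held by all 15 libraries rose by 254 bases in the mean, and the others fell by 317.

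NRG1 (ENSG00000157168, chromosome 8 from 31639222 to 32855666, plus strand) encodes neuregulin 1 and held 127 of the 351 consensus regions. WT libraries had 19216, 16601 and 16652 bases, KO1 libraries 19232, 19580 and 19356, and KO2 libraries 19581, 19334 and 22247. Rescue1 libraries had 17150, 17349 and 19615, and Rescue2 libraries 22272, 21146 and 19413. All 6 KO libraries were above all 3 WT libraries, narrowly so for KO1 replicate 1 over WT replicate 1. The difference of 0.19 (95% confidence interval 0.03 to 0.35) was not called in KO against WT (limma adjusted p = 0.0745), and without WT replicate 1 it was (0.26, adjusted p = 0.0242), as it was without Rescue2 replicate 3 (adjusted p = 0.0359), with 150000 peaks per list (0.16, adjusted p = 0.0391) or with libraries scaled to equal covered length (0.07, adjusted p = 0.0428). Rescue differed from KO by -0.03 (interval -0.16 to 0.10, adjusted p = 0.706), or by -0.09 after that scaling (adjusted p = 0.00391).

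NRG1 has several promoters, and they behaved differently. The start of the long isoforms, 908.4 kb upstream of the canonical one, and the canonical start (chr8:32547871-32549355) had peaks in all 15 libraries. Another start 173.5 kb downstream of the canonical one had peaks in 3 of 3 WT, 1 of 3 KO1, 0 of 3 KO2, 3 of 3 Rescue1 and 3 of 3 Rescue2 libraries. The other 3 clusters of annotated starts had none. At the long-isoform start the region chr8:31639179-31639767, named here after its values were seen, was present in 2 of 3 WT, 6 of 6 KO and 5 of 6 rescue libraries, and KO exceeded WT there by 332 bases on average. The region with the highest enrichment among all called regions lay 737.3 kb upstream of the canonical start, in an intron of the long isoforms (chr8:31810751-31811319). It had no peak in WT, a fold enrichment of 12.3 to 18.2 in the 6 KO libraries and of 9.38 to 12.6 in the 6 rescue libraries. A neighbour 728.1 kb upstream (chr8:31820096-31820362) was also absent from WT and present in all 6 KO and all 6 rescue libraries, at fold enrichments of 3.66 to 6.24 in KO and 4.08 to 9.32 in rescue. By contrast the regions 851.6, 759.0 and 610.5 kb upstream (chr8:31696478-31696859, chr8:31789267-31789438 and chr8:31937637-31937907) were present in 6 of 6 KO libraries and absent from all WT and all rescue libraries. A region 93.5 kb upstream (chr8:32454663-32454902) was absent from all KO libraries and present in 6 of 6 rescue libraries and 1 of 3 WT libraries.

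**Figure D4:**
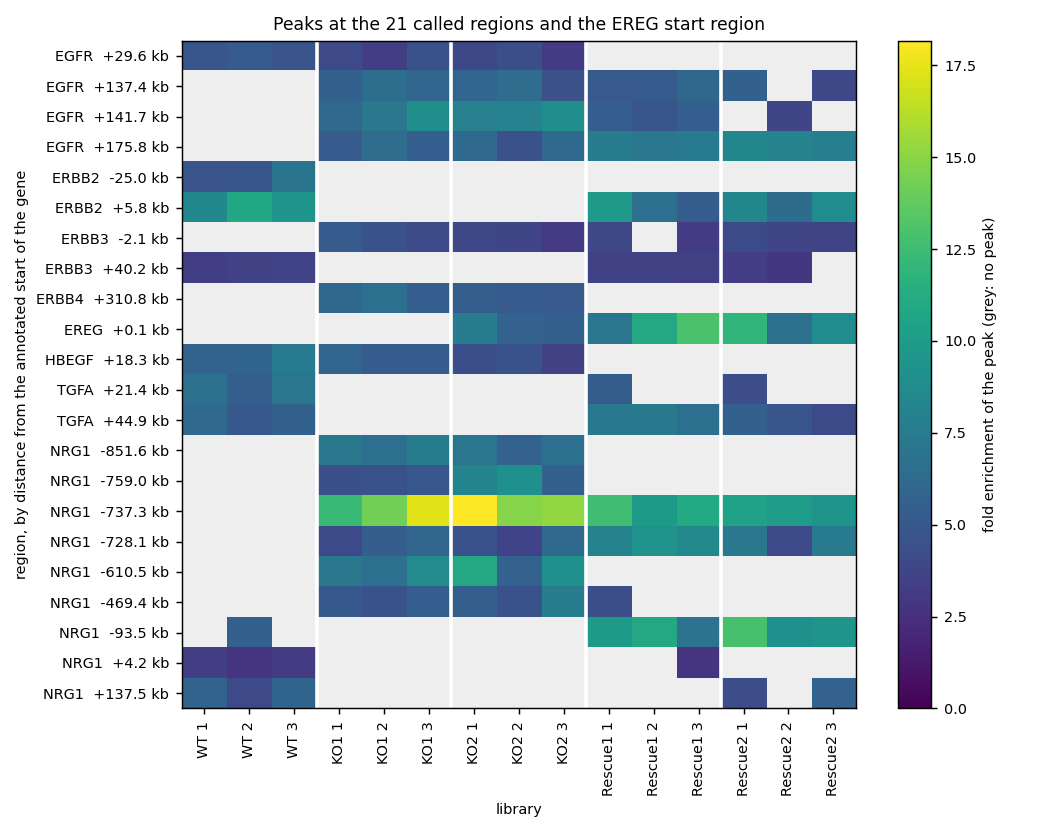
The 21 called regions and the EREG start region are shown as rows, named by gene and distance in kb from the canonical start, and the 15 libraries as columns. Colour gives the fold enrichment of the peak and grey means no peak. Among the rows are regions of KO and rescue, regions of KO alone, regions missing from KO, and 2 regions, at EGFR and HBEGF, missing from rescue alone, and the EREG start is filled in KO2, Rescue1 and Rescue2.

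Over the 10 loci, 11 consensus regions were gained in KO against WT by the all-or-none rule and 7 were lost, where the genome-wide shares were 4.79% and 2.48% of all consensus regions. Of the 351 these are 3.13% and 1.99%, both below the genome-wide shares. In rescue against KO, 3 regions were gained, 0.855% of the 351 (0.91% genome-wide), and 6 lost, 1.71% (1.24% genome-wide). Altogether 21 regions were called in at least 1 comparison, 9 of them at NRG1, 4 at EGFR, 2 each at ERBB2, ERBB3 and TGFA, and 1 each at ERBB4 and HBEGF, while AREG, EREG and BTC had none. Of the 11 gained in KO, 4 were lost again in rescue, 3 at NRG1 and the 1 at ERBB4. Of the 7 lost in KO, 2 were gained again, at ERBB2 and TGFA. Rescue against KO shares its KO libraries with KO against WT, so these counts are a description. No genome-wide share of such reversals is given here, so they cannot be read as particular to these loci. No region reached an adjusted p under 0.05 by Fisher's exact test (two-sided, Benjamini-Hochberg over 295008 regions), since the smallest adjusted p was 0.164 in KO against WT and 0.101 in rescue against KO. At an unadjusted p under 0.05, 35 regions of the 10 loci passed in KO against WT (9.97%, beside 10.8% of all consensus regions) and 26 in rescue against KO (7.41%, beside 5.29%).

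Of the 351 consensus regions, 137 (39.0%) were held by all 15 libraries, beside 35.6% genome-wide, from 33.1% at NRG1 to 64.7% at HBEGF. By position, 256 were intronic, 18 touched an exon, 13 lay within 500 bp of a canonical start, 21 were upstream and 43 downstream.

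**Figure D5:**
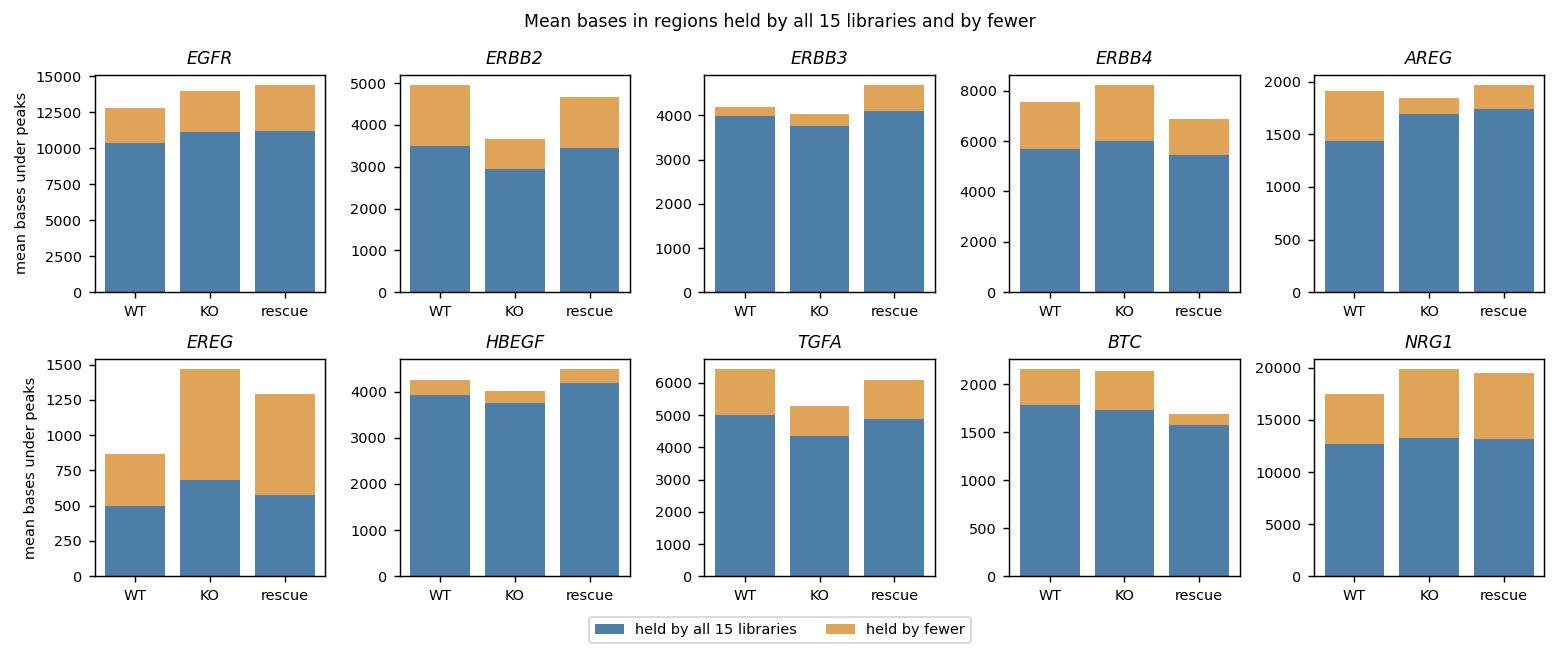
Stacked bars give the mean bases under peaks per locus in WT (n = 3), KO (n = 6) and rescue (n = 6) libraries, with regions held by all 15 libraries in blue and the others in orange, on axes that start at 0. At ERBB2 and TGFA both parts are lowest in KO, and at BTC the orange part is smallest in rescue, 114 bases against 404 in KO.

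A list of 44 other genes of the pathway was examined with the same fit. In KO against WT 6 were higher and 5 lower, with a median log2 difference of -0.01, and in rescue against KO 8 were higher and 3 lower, with a median of 0.09 beside the shares and medians over all genes given above. Among the 5 other ligands, NRG3, a neuregulin that binds ERBB4, changed by far the most. Its window had 389, 578 and 194 bases in WT, 8888, 8888 and 9893 in KO1 and 6430, 5620 and 6908 in KO2. Rescue1 libraries had 3190, 3028 and 3714, and Rescue2 libraries 5042, 4419 and 3334. WT, KO and rescue did not overlap, and KO1 lay above KO2. KO was 4.07 higher than WT (SE 0.15, limma adjusted p = 2.9e-17), and rescue fell by 1.01 against KO (SE 0.13, adjusted p = 4.69e-07). NRG2 fell by 0.21 in KO (adjusted p = 0.0424) and was 0.43 higher in rescue than in KO (adjusted p = 5.83e-06).

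Of 13 inhibitors, 2 were higher in KO and none lower, beside 15.9% and 13.9% of all genes. LRIG1, which promotes breakdown of the receptors, was 0.65 higher in KO than in WT (SE 0.07, limma adjusted p = 8.3e-08), at 10355 ± 541 bases (SD, n = 6) against 6566 ± 804 (SD, n = 3), and rescue differed from KO by -0.08 (adjusted p = 0.31). Of 17 adaptors and kinases, 2 were higher and 3 lower in KO, and 6 were higher and none lower in rescue against KO. Over all genes 31% were higher and 6.83% lower in rescue against KO. With so few genes per group, these counts are a description and not a result for the group. The kinase genes BRAF (-0.38, adjusted p = 0.0014) and MAP2K1 (-0.29, adjusted p = 0.00313) were lower in KO, and MAP2K1 was 0.40 higher in rescue than in KO (adjusted p = 6.2e-06). BRAF was called in rescue against KO as well (0.19, adjusted p = 0.0396), but not by the exact permutation test (adjusted p = 0.27), and the clones differed. Rescue1 libraries had 3017, 2818 and 3327 bases at BRAF, Rescue2 libraries 4286, 4361 and 3866, and KO libraries 2851 to 3856, so only Rescue2 lay above the KO range. NRAS was 0.40 higher in KO (adjusted p = 0.00533). The adaptor GRB2 and the kinase MAP2K2 were called in rescue against KO, at 0.41 (adjusted p = 2.57e-05) and 0.35 (adjusted p = 0.000553). Of 4 genes for shedding and processing, the protease ADAM10 was 0.32 higher in KO (adjusted p = 0.0193). Of 5 early response genes, EGR1 was 0.35 lower in KO (adjusted p = 0.00407) and none was called in rescue against KO.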

How the data were processed

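ATAC-seq libraries of RPTEC cells were analysed in 5 groups of 3 (WT, KO1, KO2, Rescue1 and Rescue2), as the genotype labels give them. The submitters' processing notes name BWA 0.7.17, MACS2 2.2.7.1, DiffBind 2.14.0 and build hg38. The read processing behind the lists was not repeated. The deposited files are 1 peak list per library, called by the authors separately for each library, with positions, a fold enrichment over background (a ratio) and −log10 p- and q-values. No read counts were used, so depth is unknown and the width of a peak also follows how deeply a library was sequenced.

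Positions were read as hg38. The same 24 chromosomes were in the reference, and on 0 of them did a region run past the end. Peaks of autosomes 1 to 22 and of the sex chromosomes were joined where they shared at least 1 bp, and regions in at least 2 libraries formed the consensus. Bases under peaks were summed for the body of each protein-coding gene of GENCODE v44 plus 20 kb on each side. Genes with a mean of at least 200 bases were tested with limma 3.58.1 (R 4.3.3, mean-variance trend) on log2(bases + 100), with all 5 groups in 1 fit. KO and rescue are the means of their clones. Adjusted p-values are Benjamini-Hochberg over all genes, with a threshold of 0.05. A region was called gained or lost when all libraries of one condition and none of the other had a peak overlapping it. The alternatives included the exact permutation test of library labels (two-sided). The code was tested on simulated data. A start is that of the Ensembl canonical transcript unless another is named, and distances run to the middle of the region.

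The text names all 10 loci, the pathway genes called in KO against WT or rescue against KO (at most 10, by size of difference), the called regions (at most 12 by enrichment rank within the lists) and the start regions. Other called regions and those marked as such were added after their values were seen. The loci, lists and tests were chosen with earlier results of these data known, and 2 of the listed markers are not reported here. Libraries with the same replicate number did not deviate together, with correlations of -0.19 to 0.04 over 30 pairs, so the numbers do not pair the samples. No 2 lists were the same, and libraries of a group shared 76.6% to 81.3% of their joint consensus regions.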

Additional observations from a re-analysis of the deposited data

Results flagged for a closer look

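In 20 sets of 6 libraries (KO and rescue at each of the 10 loci), 2 held a library far from the others by Dixon's criterion, where chance alone gives about 1 in 20. At AREG, Rescue2 replicate 1 had 2275 bases under peaks among the rescue libraries. At NRG1, KO2 replicate 3 had 22247 bases among the KO libraries. These 2 libraries had the longest lists of peaks of all, at 266011 and 255339. The part of list length in these values was not tested.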

How the results depend on the processing

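The number of loci called moved with some settings, and the causes were not tested. With libraries scaled to equal covered length, 6 were called in KO against WT, 8 in rescue against KO and 5 in rescue against WT, instead of 3, 5 and 2, beside 58.6%, 45.8% and 44.5% of all genes. With the gene body only, 3 were called in rescue against KO (29.8% of all genes) and 1 in rescue against WT (25.2%). With Rescue1 alone the counts were 2 (23.5%) and 1 (18.4%). By the exact permutation test 0 were called in KO against WT and 0 in rescue against WT, where the smallest possible p of 0.0238 is too large for a call after adjustment. In rescue against KO that test called 4, beside 5290 of 19001 genes, and the call lost was that of TGFA. With the replicate block the counts were 3, 5, 2 and 0 (KO2 against KO1), as without it, although the numbers do not pair the samples. Leaving out 1 library at a time gave 3 to 4, 4 to 6, 1 to 5 and 0 to 0 calls. In rescue against WT the count was 5 without WT replicate 1 (33.6% of all genes) or Rescue2 replicate 3 (37.9%) and 1 without WT replicate 3 (17.6%).

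Regions called depended on how strict the rule was, and each count is followed by its share of the regions at the 10 loci and, after the stroke, of all consensus regions. By majority, KO against WT had 39 gained (11.1% / 12.9%) and 37 lost (10.5% / 9.64%), and rescue against KO 26 (7.41% / 7.58%) and 25 (7.12% / 6.76%). KO2 alone gave 28 gained (7.98% / 8.34%) and 13 lost (3.7% / 3.23%) against WT, and KO1 alone 11 lost (3.13% / 4.8%). In rescue against KO the gained regions numbered 8 at −log10 q of at least 5 (2.83% / 1.07%), 13 for KO1 alone (3.7% / 3.1%), 5 for KO2 alone (1.42% / 1.17%), 6 for Rescue1 alone (1.71% / 1.8%) and 6 for Rescue2 alone (1.71% / 2.44%). The lost ones numbered 3 at −log10 q of at least 5 (1.06% / 1.29%), 1 with 150000 peaks per list (0.407% / 1.56%), 10 for KO1 alone (2.85% / 2.8%), 10 for KO2 alone (2.85% / 2.3%) and 12 for Rescue1 alone (3.42% / 2.73%). Leaving out 1 library gave 11 to 19 gained (19 without KO1 replicate 1, 5.51% / 5.43%) and 7 to 14 lost (14 without WT replicate 2, 4.05% / 3.51%, and 11 without WT replicate 3, 3.19% / 3.46%) in KO against WT. In rescue against KO it gave 3 to 6 gained (6 without KO2 replicate 3, 1.78% / 1.34%, and 5 without KO1 replicate 2, 1.43% / 0.983%, or Rescue2 replicate 3, 1.43% / 1.15%) and 6 to 9 lost.

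Of 1080 alternative values for single loci, 982 kept direction and side of the threshold. ERBB2 and EREG stayed called in KO against WT in every alternative but the permutation test. Every value that changed sign was uncalled. In KO against WT these were ERBB4 at -0.0021 (150000 peaks), AREG at 0.17 (−log10 q of at least 5), 0.15 (150000 peaks) and 0.10 (50 kb flanks), and BTC at 0.051, 0.0073, 0.095 and 0.027 (−log10 q of at least 5, gene body, 50 kb flanks, KO2 alone). In rescue against KO they were EGFR at -0.020 (scaled), EREG at 0.15 (150000 peaks), and NRG1 at 0.0011 (KO1 alone) and 0.074 (Rescue2 alone). In rescue against WT they were ERBB3 at -0.0054 (scaled), AREG at -0.12 (scaled) and -0.11 (gene body), HBEGF at -0.095, -0.0031, -0.085 and -0.039 (scaled, 150000 peaks, gene body, Rescue1 alone) and NRG1 at -0.018 (scaled). In KO2 against KO1 they were EGFR at -0.024 (scaled) and -0.023 (150000 peaks), ERBB2 at -0.014, -0.045 and -0.081 (−log10 q of at least 5, 150000 peaks, gene body), ERBB4 at -0.064 (150000 peaks), AREG at 0.018 and HBEGF at -0.041 (gene body), BTC at -0.23 (50 kb flanks) and NRG1 at -0.014 (150000 peaks). Leaving out 1 library, the values that crossed 0 ran from -0.093 to 0.020 for ERBB3, -0.088 to 0.0067 for AREG and -0.057 to 0.035 for BTC in KO against WT, from -0.15 to 0.014 for ERBB2 and -0.00082 to 0.094 for AREG in rescue against WT, and in KO2 against KO1 from -0.039 to 0.061 for EGFR, -0.021 to 0.11 for ERBB2, -0.066 to 0.033 for ERBB3, -0.048 to 0.12 for ERBB4, -0.12 to 0.018 for AREG and -0.085 to 0.054 for TGFA. Without read counts, a missing peak may be a weak one below the caller's threshold.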
